A study of Eptatretus atami with 13 samples.

Results

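In the brown hagfish *Eptatretus atami*, 166 of 37562 gene models were high in both gills and skin and lower in every other organ sequenced. A model was taken as a member when the lower of its levels in gills and skin was at least 5 FPKM and at least 2 times its highest level among the other 11 organs. FPKM, the usual measure of read density, divides each count by the exon length of its model and by the total of counts assigned to genes in the library. The levels of all 13 libraries therefore chose the members, and the height of gills and skin over the other organs is given below as a description. One further model that meets the rule, EA22819 (*TSPAN1*, named for a tetraspanin membrane protein), was set aside, with 422 FPKM in gills, 131 FPKM in skin and at most 1.23 FPKM elsewhere.

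RNA from 13 organs was sequenced, namely gills, skin, adipose tissue, blood cells, brain, gall bladder, heart, intestine, kidney, liver, ovary, slime gland and skeletal muscle of the tongue. All carry the genotype label WT, the cell type label "Whole organism" and a treatment label of normal embryonic development, and the sources used here name no age, sex or number of animals. Each organ has 1 library, so no value below has a replicate error, no test between organs was made, and intervals cover counting error only. The counts assigned to genes were 18800367 in gills, the lowest of the 13, and 28892621 in skin, against 20805399 to 39077785 in the other organs.

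Gills and skin are the surfaces of a hagfish that face sea water. The gills lie in pouches and hold a thin respiratory epithelium with blood vessels, supporting tissue and the muscle that works the pouches, while hagfish skin is scaleless and carries a layered epidermis rich in mucus-producing cells. Vertebrate epithelia of this kind use keratin filaments, cell-cell junctions such as gap junctions made of connexins, glycosylated mucus proteins and innate immune proteins. In bulk libraries of whole organs, fewer cells of a type and less RNA per cell cannot be told apart.

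The rule took 0.445% of all models, counting EA22819. Applied to gills without regard to skin it gave 685 models, and applied to skin without regard to gills it gave 320, so that the 167 models meeting both were 24.4% of the gills list and 52.2% of the skin list. The same rule was applied to each of the 78 pairs of organs. Gills and skin shared 167 models and stood in second place, after the 1325 models of the libraries labelled adipose tissue and brain. The library labelled adipose tissue had 931 FPKM of the neural gene *NEFM*, against 899 FPKM in brain. Which tissue it holds was not tested, and adipose tissue below means this label. Gills shared 66 models with ovary and 42 with blood cells, and skin shared 31 with slime gland. With adipose tissue left out, gills and skin shared 172 models and were again second of 66 pairs, after a pair with 207.

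**Figure D1:**
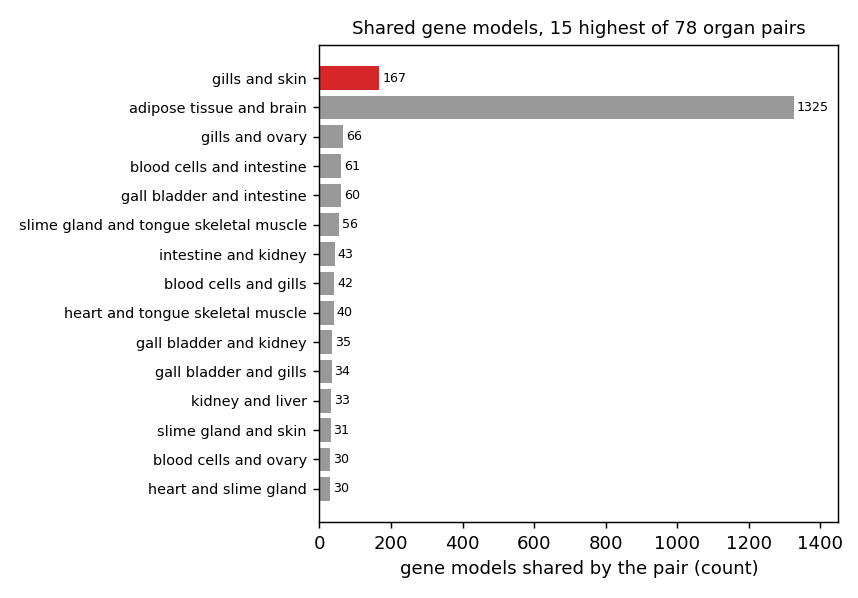
Number of gene models (x axis, count) that reach at least 5 FPKM and 2 times the highest of the other 11 libraries in both organs of a pair, for the 15 pairs with the most, the red bar being gills and skin and grey bars the other pairs. Gills and skin share 167 models, against 1325 for adipose tissue and brain and 66 for gills and ovary.

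The members together held 3.78% of the assigned counts in gills and 3.91% in skin, against 0.00847% in tongue skeletal muscle to 0.262% in gall bladder among the other organs. The median member had 40.3 FPKM in gills and 24.7 FPKM in skin, and at most 0.984 FPKM elsewhere, in ovary. The lower of gills and skin was between 5 and 10 FPKM in 38 members, between 10 and 50 in 80, between 50 and 100 in 16, between 100 and 1000 in 27 and above 1000 in 5. Most members were thus moderately abundant.

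Expression outside gills and skin varied widely among the members. In 36 members no other organ reached 1 FPKM, and 79 members reached it in at most 2 of the other 11, while 23 reached it in 9 or more. The lower of gills and skin exceeded the next organ 6.66-fold at the median, from 2 to 3 times in 50 members to 50 times or more in 11. On counting error alone, the lower 95% limit of this ratio was at least 2 in 133 of the 166.

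**Figure D2:**
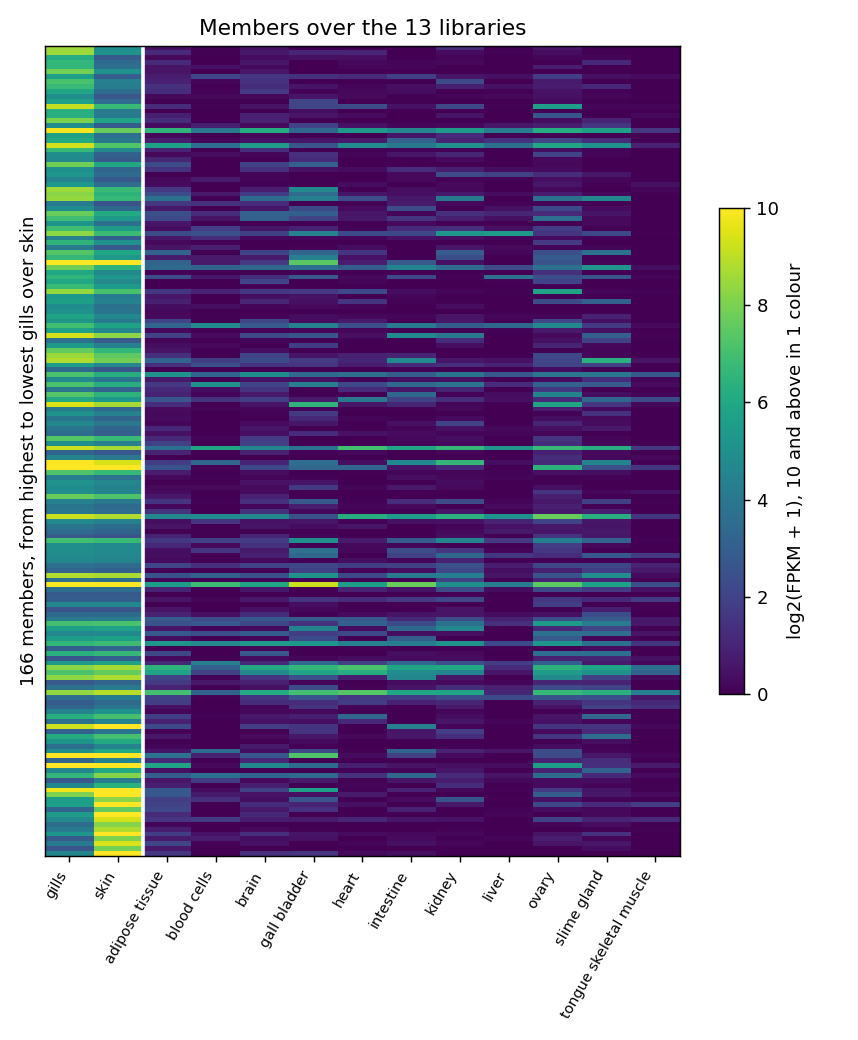
Level of the 166 members (rows, from the highest to the lowest ratio of gills to skin) in the 13 libraries (columns, gills and skin first), as log2(FPKM + 1), with values of 10 and above in 1 colour. Gills and skin are bright in all rows by the rule, most rows are dark in the other organs, and 23 members reach 1 FPKM in 9 or more of those organs.

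The most abundant member was EA57855, a model of 4 exon blocks and only 237 bp of exon on chromosome 4 (78917008 to 78947120). It had 9451 FPKM in gills and 26564 FPKM in skin, and 0.167, 0.818 and 56.7 FPKM as the lowest, median and highest level of the other 11 organs, the highest being adipose tissue. It held 0.224% of all assigned counts in gills and 0.630% in skin. Its level in skin was 2.81 times that in gills (95% interval 2.77 to 2.85). The files give it no name and no domain.

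Next in order of the lower level came EA11807, a single exon block of 369 bp on chromosome 10, with 2289 FPKM in gills, 5360 FPKM in skin and at most 152 FPKM elsewhere, in gall bladder. EA58926 on chromosome 4 was about as high in gills (2001 FPKM) as in skin (1838 FPKM), and differed from the models above in being found everywhere, with a lowest, median and highest level of 4.38, 55.4 and 586 FPKM in the other organs. EA10104 on chromosome 10 had 2008 FPKM in gills, 1371 FPKM in skin and at most 86.1 FPKM elsewhere. These models have no annotation in the sources used here.

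Among the 12 highest members, EA11419 and EA08998 are neighbours of EA11807 and EA59962 is a neighbour of EA57855, and they are described with their neighbours below. EA30990 on chromosome 7 had 988 FPKM in gills, 673 FPKM in skin and at most 100.2 FPKM elsewhere, in kidney. EA55436 on chromosome 14 was nearly level, with 461 FPKM in gills, 417 FPKM in skin and at most 34.2 FPKM elsewhere. EA20445 on chromosome 13 had 705 FPKM in gills and 403 FPKM in skin, with gall bladder next at 89.1 FPKM. EA50487 (590.1 FPKM in gills, 453 FPKM in skin) and EA84928 (596 FPKM in gills, 398 FPKM in skin) reached at least 1 FPKM in all 11 other organs, with ovary next at 206 FPKM for EA50487 and heart next at 125 FPKM for EA84928.

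At the other end of breadth, 2 members had no count in any other organ. EA52576, a single exon block of 432 bp on chromosome 14 (34948338 to 34948769), had 105 FPKM in gills and 42.1 FPKM in skin, so its level in skin was at least 126-fold higher than the level that 3 counts would give in the least deep of the other libraries. EA26571 on chromosome 5 had 6.13 FPKM in gills and 5.87 FPKM in skin, at least 36.0-fold higher on the same floor. Neither is named in the sources used here.

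EA27640 on chromosome 5 had the largest measured ratio to the next organ, 227-fold, with 195 FPKM in gills, 98.0 FPKM in skin and 0.431 FPKM in adipose tissue. EA62251 on chromosome 4 had 205 FPKM in gills, 149 FPKM in skin and at most 0.911 FPKM elsewhere, 163 times less than in skin. EA22693 on chromosome 1 had 150.4 FPKM in gills, 103 FPKM in skin and at most 0.676 FPKM elsewhere, 152 times less than in skin. EA22693 carries an EF-hand, the calcium-binding fold of proteins such as calmodulin. Besides EA57855, the other members with ratios above 100 were EA07135 and EA10912, which belong to the runs of neighbours below. On counting error, the lower 95% limit of the ratio was 144 in EA27640, 103 in EA62251 and 73.7 in EA22693. It was 39.7 in EA07135 and 40.9 in EA10912, which had 7 and 8 counts in their next organs.

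A few broad members sat at the threshold of the ratio. EA28682 and EA26499 are adjacent on chromosome 5 and EA08865 lies on an unplaced scaffold, and all 3 had heart next, at ratios of 2.02, 2.00 and 2.17. EA28682 had 331 FPKM in gills and 484 FPKM in skin, with a lowest, median and highest level of 1.11, 69.5 and 164 FPKM elsewhere. EA08866, on the same scaffold as EA08865, fell just outside with a ratio of 1.99, at 344 FPKM in gills and 455 FPKM in skin. Over the 11 other libraries the log2(FPKM + 1) of EA28682 had a Pearson correlation of 0.996 with EA26499, 0.990 with EA08865 and 0.986 with EA08866. These models were singled out after their values were seen, and the 11 points share the scaling of their libraries. Whether these short models are copies or pieces of 1 gene was not tested, and reads that match several places were not counted.

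The other models just inside and outside the thresholds were as follows. EA77709 had a ratio of 2.01, while EA85301 at 1.98 and EA19434 at 1.94 were outside. For the level, EA85641 at 5.07 FPKM, EA23425 at 5.12 FPKM and EA32380 at 5.14 FPKM in the lower organ were members, and EA35355 at 4.94 FPKM, EA74088 at 4.85 FPKM and EA29778 at 4.79 FPKM were not. These models were picked as the nearest to each threshold, so their closeness to it is a description only.

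The balance between gills and skin was not set by the rule, apart from the need to pass in both. The members spread more widely about it than other models expressed in both organs. Of the 166, 115 (69.3%) were higher in gills and 51 higher in skin, against 86.1% higher in gills among the 8724 other models with at least 5 FPKM in both. Members were within 2 times of equal in 49.4% of cases, against 71.2% of those other models. Gills exceeded skin at least 4 times in 24 members (14.5%, against 3.97%) and skin exceeded gills at least 4 times in 13 (7.83%, against 1.38%).

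The median log2 ratio of gills to skin was 0.58 in members (quartiles -0.33 and 1.44), against 0.66 in the other models (0.29 and 1.01). The common excess in gills depends on the scaling. The 10 highest models took 36.4% of the counts in skin and 4.84% in gills, and with TMM factors or DESeq2 size factors the median of the other models moved to -0.08 or -0.04. Members by the same rule then had medians of 0.12 and 0.14, and 54.0% and 55.3% of them were higher in gills. On counting error, the ratio lay above 1 in 102 members and below 1 in 45, and its interval held 1 in 19.

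**Figure D3:**
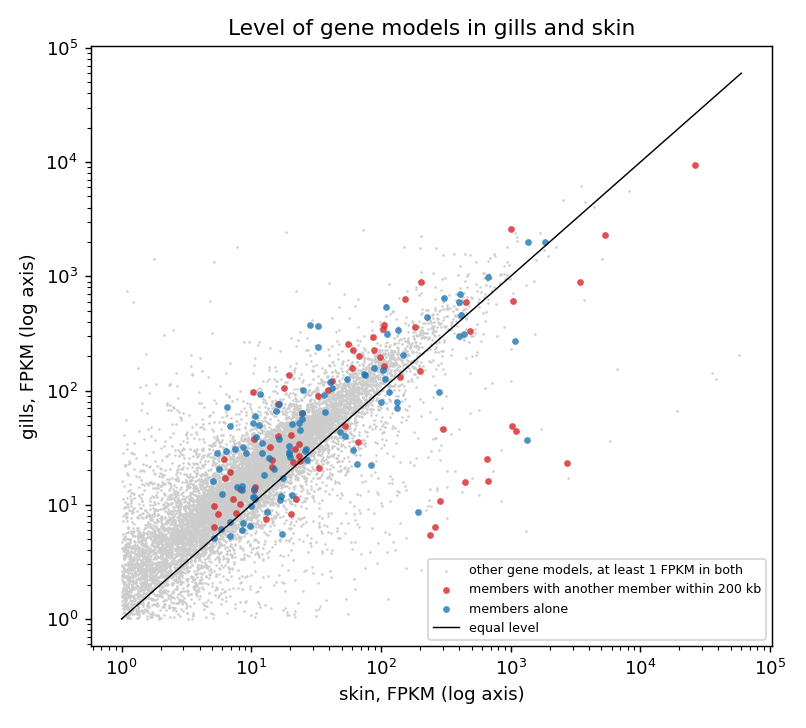
Level in gills (y axis) against skin (x axis) in FPKM, both on log axes, for members with another member within 200 kb (red), members alone (blue) and the other models with at least 1 FPKM in both (grey), with a line of equal level. The members follow the grey cloud with a wider spread. Of them, 24 lie at least 4 times higher in gills and 13 at least 4 times higher in skin.

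The largest excess in gills was that of EA16834 on chromosome 11, a model of 25 exon blocks, with 372 FPKM in gills, 28.2 FPKM in skin and at most 1.39 FPKM elsewhere, 13.2 times higher in gills (12.5 to 13.96). EA05936 on chromosome 16, with 42 exon blocks the most of any member, had 368 FPKM in gills and 32.8 FPKM in skin, 11.2 times higher in gills (10.8 to 11.7). EA30036 on chromosome 5 had 72.4 FPKM in gills and 6.55 FPKM in skin. These ratios are far outside counting error, and all the same the level in skin stood 18.2 to 25.3 times over the next organ.

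Also far higher in gills were EA37162 on chromosome 1 (96.9 FPKM in gills, 10.4 FPKM in skin), EA70507 on chromosome 12 (93.6 FPKM in gills, 11.6 FPKM in skin) and EA60137 on chromosome 4 (238 FPKM in gills, 32.6 FPKM in skin). EA37162 carries a V-set domain, the variable-type immunoglobulin fold found in many receptors of the immune system and of the cell surface. Its neighbour EA39091, of the same Panther family, had 105 FPKM in gills and 18.03 FPKM in skin, and both had adipose tissue next, at 1.35 FPKM for EA37162 and 1.66 FPKM for EA39091. The ratio of gills to skin was 9.35 in EA37162 (7.36 to 11.98) and 5.83 in EA39091 (4.91 to 6.99), so the excess in gills differed between these neighbours by more than counting error.

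The largest excess in skin was that of EA11882 on chromosome 10, with 23.2 FPKM in gills and 2735 FPKM in skin, 118 times higher in skin (96.8 to 145), and at most 2.00 FPKM elsewhere. EA53614, on chromosome 14 (8672984 to 8691467), had 37.1 FPKM in gills and 1334 FPKM in skin. EA68621, EA63863, EA65449 and EA64996 lie together on chromosome 8, and in them skin exceeded gills 28.2 to 44.1 times. These are models of skin that reached the threshold in gills at a small share of their level in skin.

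In all, 11 members had less than 5% of their skin level in gills, and the level of such members in gills is given here beside that of skin models in general. Of the 28 models with at least 200 FPKM in skin and at least 20 times the highest of the other 11 organs, 17 were members, and so chosen for their level in gills. The level in gills of the 28 was 2.41% of that in skin at the median (0.0236% to 58.2%). Gills were under 1% of skin in 10 of the 28. Whether a trace of skin tissue or reads from the skin library contribute to the level in gills was not tested. Without the 11 members, 155 remained, of which 74.2% were higher in gills. All 11 were higher in skin, so leaving them out had to raise this share.

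Position on the genome was not used to choose the members, and many of them lie side by side. Another member lay within 200 kb on the same scaffold for 69 of the 166 (41.6%), in 15 pairs, 6 runs of 3 and 4 longer runs, while 97 members stood alone. For other pairs of organs by the same rule this share was 19.7% in gills and ovary, 24.6% in blood cells and intestine, 30.2% in kidney and intestine and 38.3% in gall bladder and intestine, with no run longer than 3. These groups are smaller, and a larger group has more neighbours at a given spacing. The share was not computed for the remaining pairs, among them the larger pair of adipose tissue and brain, or for other groups of equal size. Members in runs had a median exon length of 720 bp and a median ratio to the next organ of 8.67, against 1629 bp and 4.66 for members alone.

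The longest run held 7 members among 10 models within 287 kb of chromosome 10 (47707796 to 47995057). In 3 of them the level was very high in both organs, at 2606 FPKM in gills and 1013 FPKM in skin for EA11419, 2289 FPKM in gills and 5360 FPKM in skin for EA11807, and 893 FPKM in gills and 3455 FPKM in skin for EA08998. The order of gills and skin changed along the run. EA13051 (374 FPKM in gills, 107 FPKM in skin) and EA11419 were higher in gills, while EA12608 (46.4 FPKM in gills, 303 FPKM in skin), EA10912 (35.2 FPKM in gills, 66.7 FPKM in skin), EA11807, EA11882 and EA08998 were higher in skin. Gall bladder was the next organ for 5 of the 7, at 5.21 to 174 FPKM, and the non-members EA12553, EA09235 and EA10261 between them had at most 0.396 FPKM in either organ.

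The run on chromosome 8 (6159913 to 6465614) held 6 members among 10 models, all much higher in skin. EA65314 had 44.1 FPKM in gills and 1093 FPKM in skin, and EA68235 had 10.7 FPKM in gills and 283 FPKM in skin. EA64996 had 15.9 FPKM in gills and 448 FPKM in skin, and EA63863 had 16.02 FPKM in gills and 675 FPKM in skin. EA68621 (5.45 FPKM in gills, 240.3 FPKM in skin) and EA65449 (6.36 FPKM in gills, 260.1 FPKM in skin) were near the threshold in gills. No other organ exceeded 3.27 FPKM in any of the 6. Their non-member neighbour EA63892 showed the same pattern under the threshold, with 2.71 FPKM in gills and 203 FPKM in skin.

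On an unplaced scaffold (36640 to 219478), all 4 models were members and all were higher in gills. They were EA08742 (225 FPKM in gills, 60.6 FPKM in skin), EA08748 (202 FPKM in gills, 67.4 FPKM in skin), EA08741 (295 FPKM in gills, 87.6 FPKM in skin) and EA08746 (25.1 FPKM in gills, 6.199 FPKM in skin). On chromosome 3 (145488700 to 145766124), 4 of 7 models were members and 3 had no count in gills or skin. EA76998 was the highest of these members, with 359 FPKM in gills and 183 FPKM in skin, followed by EA75824 (162 FPKM in gills, 105 FPKM in skin). EA75318 had 23.7 FPKM in gills and 21.0 FPKM in skin, and EA75696 was the exception in being higher in skin, with 11.1 FPKM in gills and 22.04 FPKM in skin.

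The most abundant member EA57855 lies in a run of 3 on chromosome 4 (78806486 to 79061807). Its neighbour EA59962 was also abundant, with 602 FPKM in gills, 1034 FPKM in skin and at most 19.7 FPKM elsewhere. EA63007 had 39.8 FPKM in gills and 16.05 FPKM in skin. A second run on chromosome 4, at 61067730 to 61308434, was much lower, with EA62812 (23.9 FPKM in gills, 23.8 FPKM in skin), EA58985 (21.5 FPKM in gills, 14.5 FPKM in skin) and EA59946 (30.9 FPKM in gills, 21.8 FPKM in skin), all with ovary next.

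Chromosome 16 held a run each at 18137034 to 18202628 and 65777897 to 65837534. In the first run, EA07860 (34.4 FPKM in gills, 23.5 FPKM in skin), EA06463 (32.0 FPKM in gills, 13.9 FPKM in skin) and EA07135 (21.2 FPKM in gills, 33.4 FPKM in skin) had at most 0.466 FPKM in any other organ. In the other run, EA05850 (101 FPKM in gills, 39.01 FPKM in skin), EA07788 (13.8 FPKM in gills, 8.18 FPKM in skin) and EA05213 (40.8 FPKM in gills, 20.2 FPKM in skin) all had gall bladder next. EA07788 lies within the span of EA05850 on the opposite strand, and the counting used no strand, so their reads may not be told apart.

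On chromosome 15 (11515522 to 11713675), EA84341 (257 FPKM in gills, 55.9 FPKM in skin), EA85318 (138 FPKM in gills, 19.4 FPKM in skin) and EA82991 (227 FPKM in gills, 88.3 FPKM in skin) were all higher in gills. EA84640, the model between EA85318 and EA82991, was no member, with 44.5 FPKM in gills, 33.2 FPKM in skin and 99.6 FPKM in its highest other organ. Membership thus changed from model to model within a run.

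**Figure D4:**
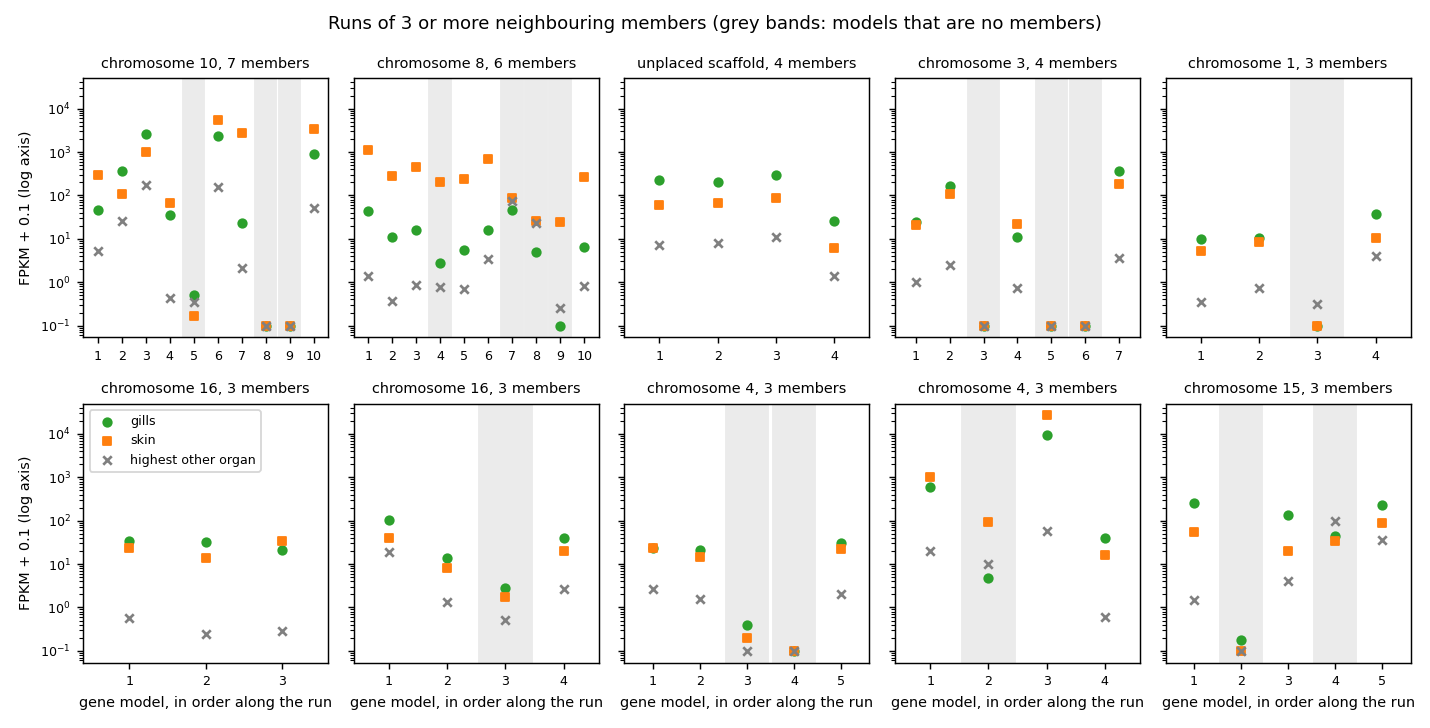
Level (y axis, FPKM + 0.1, log axis) in gills (green), skin (orange) and the highest other organ (grey crosses) for each gene model in the 10 runs of 3 or more members, in order along the run, with grey bands over models that are no members. Skin lies far above gills in all 6 members of chromosome 8, gills lie above skin in all 4 members of the unplaced scaffold, and both orders occur in the run of chromosome 10.

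The median member was also a short model. The median exon length of the members was 1186 bp and their median number of exon blocks 5, against 1596.5 bp and 8 among the other models expressed in both organs. The shorter median length was found in the 69 members in runs (720 bp) and not in the 97 members alone (1629 bp). Exon blocks were not compared between members in runs and members alone. A single exon block made up 15 members (9.04%), against 2.64% of the other models, and 32 members (19.3%) had less than 500 bp of exon, against 10.6%. Exon length enters FPKM, so short models reach a given FPKM on fewer counts. By chromosome, members were from 0.395% of the models expressed in both organs on chromosome 13 to 3.65% on chromosome 16.

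The organ next highest after gills and skin was not set by the rule. It was ovary for 33 members, gall bladder for 29, adipose tissue for 28, slime gland for 19, kidney for 16, blood cells for 13, brain for 9, heart for 8, intestine for 6 and liver for 3. Tongue skeletal muscle was next for no member. Adipose tissue is here the library that shared 1325 models with brain. Slime gland was next for 11.4% of members, against 1.42% of the other models expressed in both organs, and ovary for 19.9%, against 32.1%. The rule bounds how high the next organ may stand in members and not in the other models. With TMM factors, slime gland led with 31 members and ovary followed with 20. The shares among the other models were not computed with these factors, so this change cannot be set against them. A ratio under 3 was found in 50 of the 166 members. It was found in 5 of 8 with heart next, 8 of 16 with kidney, 2 of 3 with liver and 6 of 13 with blood cells. The shares with the other organs next were smaller.

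**Figure D5:**
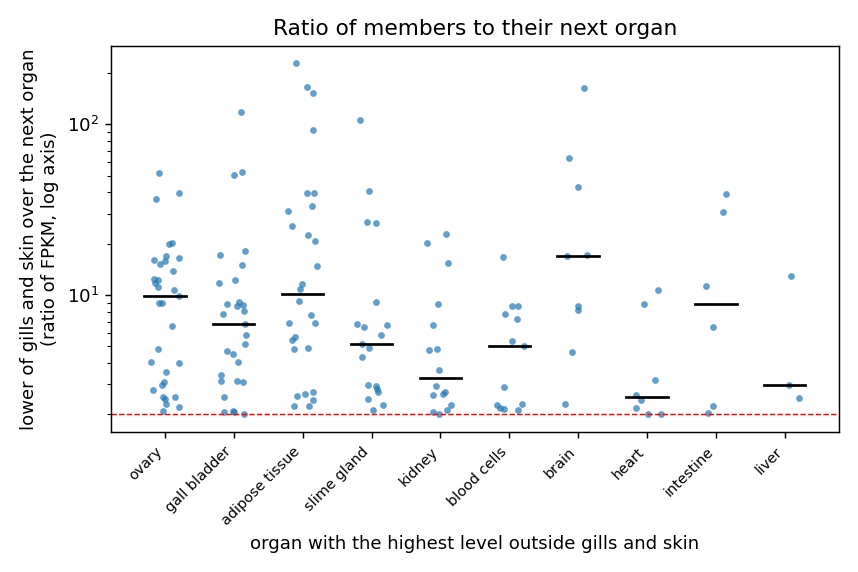
Ratio of the lower of gills and skin to the next organ (y axis, ratio of FPKM, log axis) for members grouped by which organ is next (x axis), with each point a member, black lines the medians and the red dashed line the ratio of 2 that the rule requires. The 2 members with no count elsewhere are not shown. Ratios above 100 occur with gall bladder, adipose tissue, slime gland and brain next.

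Names were available for chromosome 1 alone, from the part of a source table of the study used here, and 12 of the 21 members on chromosome 1 were in it. They are the members for which a function can be stated, by match to genes of other species. *GJB6-4* (EA36843), a connexin, the subunit of gap junction channels that join epithelial cells, had 14.5 FPKM in gills and 8.54 FPKM in skin, and 0, 0.0916 and 0.730 FPKM as the lowest, median and highest level elsewhere. *NKPD1-2* (EA38905), with a KAP-type NTPase domain, had 32.9 FPKM in gills and 19.4 FPKM in skin, with gall bladder next at 2.13 FPKM, whereas *NKPD1-1* had 0.0520 FPKM in gills and 0.0677 FPKM in skin. *PTPN14-2* (EA36924), named for a protein tyrosine phosphatase that in mammals is found at cell-cell junctions, had 20.5 FPKM in gills, 15.1 FPKM in skin and 5.93 FPKM in gall bladder.

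Some annotated members resemble tripartite-motif proteins. These proteins, many of them ubiquitin ligases, include *TRIM25*, which in mammals takes part in sensing viral RNA. *TRIM25-11* (EA23136) had 10.1 FPKM in gills and 8.24 FPKM in skin, and its neighbour EA23425, with a B-box zinc finger, had 9.80 FPKM in gills and 5.12 FPKM in skin. *TRIM58* (EA21835), a ligase studied in mouse red cell maturation, had 30.9 FPKM in gills, 26.5 FPKM in skin and at most 2.48 FPKM elsewhere. Of the 19 models with a *TRIM* symbol, all on chromosome 1, *TRIM25-11* and *TRIM58* were members. This is 2 of 19, against 21 of the 3004 models on chromosome 1 and 166 of all 37562 models. The family was singled out because members carry its names, so these shares are a description only. Gills was the highest organ for 9 of the 19, and skin was not the highest for any of them. The 9 include *TRIM25-11* and *TRIM58*. The share of all models highest in gills was not computed. *TRIM25-10*, by contrast, had 392 FPKM in slime gland, 0.450 FPKM in gills and 0.147 FPKM in skin.

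The remaining named members have other roles. *FAM107A* (EA23426), named for an actin-associated protein of mammals and on the same run of neighbours as *TRIM25-11*, had 37.7 FPKM in gills, 10.4 FPKM in skin and 3.94 FPKM in kidney. *ACSS3* (EA23139), a mitochondrial acyl-CoA synthetase of short-chain acids, was one of the lowest members, with 5.36 FPKM in gills and 6.90 FPKM in skin. EA22325, with a CARD domain, a module of apoptotic and inflammatory signalling, had 63.1 FPKM in gills, 24.8 FPKM in skin and 3.03 FPKM in brain. By the study's classes of origin, 9 of the 12 were assigned to Deuterostomia, the class of 62.0% of the 1966 models with an origin in the source table, *PTPN14-2* and *GJB6-4* to Cyclostomata and EA22693 to Myxines.

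The label of the group was set against 9 gene lists for tissues and functions, again limited to chromosome 1. *GJB6-4* was the only list gene that was also a member, so the rule itself set that it is counted as higher in both organs below. It counts in the surface epithelium list and again in the junction list. A list gene was counted as higher (passed) when it had at least 1 FPKM and 2 times the median of the other 11 organs, as 30.5% of the 19238 measured models did in gills, 14% in skin and 9.15% in both. Of 13 measured genes of surface epithelium, 7 were higher in gills, 6 in skin and 3 in both, namely *GJB6-4*, *ST14* (56.8 FPKM in gills, 20.3 FPKM in skin), a membrane serine protease of epithelia, and *PPL-1* (7.49 FPKM in gills, 23.6 FPKM in skin), a plakin linking keratin to junctions. Neither gills nor skin was the highest organ for *PPL-1*, which had 2269 FPKM in slime gland. *ST14* was highest in gills. In skin *ST14* was lower than in intestine (39.2 FPKM), gall bladder (38.3 FPKM), kidney (34.0 FPKM) and blood cells (28.3 FPKM). The keratin *KRT14-4* had 192 FPKM in gills and 10.8 FPKM in skin, with higher levels in gall bladder (822 FPKM) and ovary (730.5 FPKM). In all, 6 of the 18 list genes had no count in gills and 8 none in skin, among them *KRT5-1*, *KRT5-2*, *KRT5-3* and *KRT75* in both.

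Of 13 junction genes, 5 were higher in gills, 4 in skin and 3 in both, among them *CXADR-2* (451 FPKM in gills, 110 FPKM in skin), an adhesion receptor of tight junctions. *CXADR-2* was highest in gills, but lower in skin than in gall bladder (284 FPKM), kidney (241 FPKM) and intestine (145 FPKM). *JAM3-2* (335 FPKM in gills, 113 FPKM in skin) passed in gills only, and *CTNNB1* (438 FPKM in gills, 234 FPKM in skin) in neither, with a median of 309 FPKM elsewhere. Of 10 genes listed for O-glycosylation, the attachment of sugars to proteins such as mucins, 7 were higher in gills, 4 in skin and 4 in both. The 4 included *C1GALT1-2* (43.1 FPKM in gills, 45.2 FPKM in skin) and *B4GALT4* (56.1 FPKM in gills, 35.9 FPKM in skin). The others, *CHST2* and *CHST9-1*, are named for sulfotransferases, which add sulfate and not sugar. *GALNT2* (40.2 FPKM in gills, 35.2 FPKM in skin) and *GALNT16* (9.69 FPKM in gills, 6.34 FPKM in skin) passed in neither organ, with medians elsewhere of 29.3 and 7.59 FPKM. Kidney had more *C1GALT1-2* than either organ, at 63.2 FPKM. *B3GNT3-1* had 59.5 FPKM in gills and 6.37 FPKM in skin. It is also in the surface epithelium list, and counts as higher in gills in each list.

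Of 17 genes of connective tissue, 6 were higher in gills, 7 in skin and 4 in both, a count that was 1 with TMM factors. *FKBP10-1*, a collagen chaperone, was higher in skin, with 89.8 FPKM in gills and 315 FPKM in skin. By the higher of gills and skin, *FSTL1* and *NID2* were the next most abundant of the list, and they passed in neither organ. The 4 genes that passed in both organs ranked below them. *FSTL1* had 207 FPKM in gills and 204 FPKM in skin, and *NID2* had 34.6 FPKM in gills and 75.9 FPKM in skin. Of 14 genes of ion transport 2 were higher in gills and none in skin. *SLC29A1-1*, named for a nucleoside transporter, was higher in gills, with 26.7 FPKM in gills, 16.5 FPKM in skin and a median of 10.8 FPKM elsewhere. The more abundant *SLC39A9* (51.3 FPKM in gills, 41.2 FPKM in skin) and the proton pump subunit *ATP6V1A* (43.6 FPKM in gills, 33.1 FPKM in skin) passed in neither organ, with medians elsewhere of 47.4 and 50.5 FPKM. Of 12 cell cycle genes 2 were higher in gills and 1 in skin. They were *CDC25B-1*, higher in gills (70.8 FPKM in gills, 34.4 FPKM in skin), and *E2F8*, higher in both (8.97 FPKM in gills, 4.94 FPKM in skin). *HASPIN* (22.7 FPKM in gills, 9.71 FPKM in skin) and *CDK1-2* (10.7 FPKM in gills, 20.99 FPKM in skin) passed in neither.

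Markers of other tissues differed between the 2 libraries. Of 12 muscle genes, 8 were higher in gills and none in skin, led by *MYL2-1*, a myosin light chain, with 1408 FPKM in gills and 1.79 FPKM in skin, followed by *NEB-4* (113 FPKM in gills, 2.38 FPKM in skin) and *NEBL* (48.3 FPKM in gills, 0.643 FPKM in skin). Their summed level was 1630.1 FPKM in gills and 7.08 FPKM in skin. The rule keeps out genes with more in heart, slime gland or tongue skeletal muscle than in skin. *MYL2-1* had 28575.5 FPKM in tongue skeletal muscle. *NEB-4* had 1160 FPKM in heart, 774 FPKM in slime gland and 0.276 FPKM in tongue skeletal muscle. *NEBL* had 311 FPKM in heart, 384 FPKM in slime gland and 0.0340 FPKM in tongue skeletal muscle. Of 13 blood and immune genes, 9 were higher in gills and 2 in skin. *GATA2-2* had 193 FPKM in gills, 0.948 FPKM in skin and 8.77 FPKM in blood cells, and *CASP8*, also higher in gills, had 58.3 FPKM in gills and 24.1 FPKM in skin. *TBK1* passed in neither organ, with 97.3 FPKM in gills, 29.6 FPKM in skin and a median of 54.6 FPKM elsewhere. *LYL1-1* and *WIPF1* also passed in neither. *LYL1-1*, the list gene highest in blood cells (171 FPKM), had 36.9 FPKM in gills and 21.2 FPKM in skin. *WIPF1* had 74.3 FPKM in blood cells, 21.1 FPKM in gills and 10.4 FPKM in skin. The sum of the list was 573 FPKM in gills, 131 FPKM in skin and 415 FPKM in blood cells, and without *GATA2-2* it was 379.9 FPKM in gills, 131 FPKM in skin and 406 FPKM in blood cells. Of 11 neural genes, 4 were higher in gills and none in skin, beside 30.5% of all measured models in gills and 14% in skin. Among the 4 was *RAB3A-2*, with 124 FPKM in gills, 47.8 FPKM in skin and 44.5 FPKM in brain. *NEFM*, with 899 FPKM in brain, passed in neither organ (0.198 FPKM in gills, 0.894 FPKM in skin). Neither did *UNC80-1* (0.225 FPKM in gills, 0.570 FPKM in skin, 38.9 FPKM in brain) or *BRSK2* (0.761 FPKM in gills, 0.799 FPKM in skin, 27.9 FPKM in brain). *TAGLN3* (488 FPKM in gills, 122 FPKM in skin) and *SYNPR-2* (88.3 FPKM in gills, 72.8 FPKM in skin) passed in neither, with medians elsewhere of 407 and 55.2 FPKM. The neural count in skin depends on the scaling. With TMM factors, DESeq2 size factors or totals lacking the 10 highest models, 2 neural genes were higher in both organs. The part of these tissues in the level of single members was not tested.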

How the data were processed

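The deposited values are raw counts per gene model for 13 organ libraries, made by the authors with STAR 2.5.2b and featureCounts 1.6.1 (submitters' processing notes and table header, while the methods name a later featureCounts). Libraries were strand-specific and paired, but no strand or paired counting was set, 83.6% of counts from 1 to 4 were even, and intervals (exact, Clopper-Pearson, 95%) were therefore computed on pairs of counts. Totals ranged from 18800367 to 39077785 assigned counts. Reads matching several places were not counted, so near-identical copies are uncertain. 0 columns of other samples were used.

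FPKM was computed from counts, exon length and the column sum. The members and gene lists were chosen with earlier results of these data known. Named genes are the 12 members highest in the lower organ, the 6 with the largest and the 6 with the smallest ratio of gills to skin, the 6 with the largest ratio to the next organ, all annotated members, all members in runs of 3 or more, models at the thresholds and the 3 highest of each list. EA52576, EA26571, EA08865 and the non-members of the runs were named after their values were seen.

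Chromosomes came from the study's source data for 19 scaffolds (35332 models). Positions are those of the deposited table, counted along its scaffolds, and the genome build is not given in the sources used here. Symbols came from a source table of 1998 IDs, all on chromosome 1. Alternatives were edgeR 4.0.16 TMM factors, DESeq2 1.42.0 size factors, other totals, thresholds and organ sets. Tools were Python 3.11.15, numpy 2.4.6, pandas 2.3.3, scipy 1.17.1, matplotlib 3.10.9 and R 4.3.3. The steps were tested on simulated data. Sequences and libraries of other species were not used here.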

Additional observations from a re-analysis of the deposited data

How the results depend on the processing

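With 1 library per organ, no value has a replicate error, and no organ difference could be tested. The number of members was 150 with TMM factors, of which 129 were among the 166, and 150 with DESeq2 size factors (130 shared). It was 198 with totals lacking the 10 highest models (153 shared), 166 to 199 when each other organ was left out in turn, and 292 with no level threshold. The median log2 ratio of gills to skin was 0.12 with TMM factors, 0.14 with DESeq2 size factors and 0.23 with totals lacking the 10 highest models. Relative to the other models expressed in both organs it was -0.08 as reported, and 0.19, 0.18 and 0.12 in these 3 scalings, so the sign of this small difference depends on the scaling. The members with ovary next numbered 20 with TMM factors, 21 with DESeq2 size factors, 60 with no level threshold and 50 at 1.5 times the next organ. Of 74 alternatives to the main values, 66 stayed within 1.5 times of the count or close to the ratio as reported, and none reversed the sign of the ratio of gills to skin. Of 40 alternatives for single gene lists, 10 moved further. Leaving out the 11 members with gills under 5% of skin, an alternative chosen after seeing the data, kept 60 members in runs. No paired analysis was possible because each organ has 1 library and no replicate numbers. Depth limits the low members most, and 133 of the 166 kept a ratio of 2 at the lower limit of counting error.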
